A study of Mus musculus with 24 samples.

Results

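The 10 monocyte identity genes Lyz2, Chil3, Ly6c2, Ccr2, Csf1r, F13a1, Vcan, Ms4a6c, Ctss and Cd68 are described here. They are a list of well-known markers of mouse classical monocytes, chosen by name with earlier results of these data known. All 10 were found by symbol among the 56883 gene names of the surface tables and the 55335 genes of the blood tables. Surface RNA was measured by AMOUR, which binds fixed intact cells to lectin beads, copies the RNA exposed on their outside with T7 RNA polymerase and sequences the product. The study states that no present method, AMOUR included, wholly removes the risk of RNA from inside the cell. Surface levels below are therefore levels in these libraries, and where each RNA lay was not tested. Spleen gave B cells, T cells and natural killer (NK) cells, and femoral bone marrow gave monocytes and lineage-depleted stem and progenitor cells (HSPCs), with 3 libraries for each of the 5 types. All 15 came from C57BL/6 mice of genotype WT, whose age and sex are not given in the labels. The T cells were taken with a CD8 kit and the monocytes with a monocyte isolation kit. Blood mononuclear cells (PBMCs) of animals labelled wild type gave 9 further libraries, of total RNA, in 3 treatments of 3 libraries each. The treatments are called ct, WT and Y without further explanation in the labels. Here WT is therefore a treatment name in PBMCs and a genotype on the surface.

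Classical monocytes leave the bone marrow through the chemokine receptor Ccr2 and depend on signals of the growth factor receptor Csf1r as they mature. They carry the surface protein Ly6c2, by which they are sorted, and are rich in products for killing and digesting what they engulf, such as the lysozyme Lyz2, the lysosomal protease Ctss and the lysosomal membrane protein Cd68. Chil3 encodes a secreted chitinase-like protein, F13a1 the A chain of coagulation factor XIII, Vcan the matrix proteoglycan versican, and Ms4a6c a membrane protein of the MS4A family. Several of these genes belong to families of near copies, which matters for how reads are assigned.

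Ly6c2 and Lyz2 are shown here as 2 examples. The coding sequence of Ly6c2 differed from that of its neighbour Ly6c1 at 9 of 393 bases (97.7% identity), and that of Lyz2 from Lyz1 at 22 of 444 (95.0%). The stretches of 150 coding bases below are from GRCm38 with GENCODE M21 models, on the minus strand, and capitals mark the bases that differ within each pair. They lie in exon 4 of Ly6c2 (chr15:75108602-75108751) and of Ly6c1 (chr15:75045461-75045610), and in exon 2 of Lyz2 (chr10:117280656-117280805) and of Lyz1 (chr10:117291044-117291193).
Ly6c2: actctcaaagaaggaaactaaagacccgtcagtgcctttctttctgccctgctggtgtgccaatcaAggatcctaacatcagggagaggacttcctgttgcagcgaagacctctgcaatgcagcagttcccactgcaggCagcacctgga
Ly6c1: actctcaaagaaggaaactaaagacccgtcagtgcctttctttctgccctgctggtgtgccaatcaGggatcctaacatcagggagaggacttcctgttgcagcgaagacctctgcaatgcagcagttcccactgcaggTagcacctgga
Lyz2: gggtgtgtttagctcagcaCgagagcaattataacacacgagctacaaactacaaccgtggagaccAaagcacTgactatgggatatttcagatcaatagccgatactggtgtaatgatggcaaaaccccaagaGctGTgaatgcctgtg
Lyz1: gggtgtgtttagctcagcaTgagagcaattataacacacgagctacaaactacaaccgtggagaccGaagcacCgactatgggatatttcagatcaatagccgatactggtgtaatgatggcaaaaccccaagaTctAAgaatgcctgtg

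Of all stretches of 31 bases in the protein-coding transcripts of Ly6c2, 52.5% also occur in another gene. The same share was 44.0% for Chil3, 32.8% for Lyz2, 23.6% for Ms4a6c, 3.41% for Ccr2 and 0.439% for Csf1r, and 0% for F13a1, Vcan, Ctss and Cd68. Reads that lie wholly in shared stretches are divided by estimation, so the levels of the first 4 are less certain. These shares come from GENCODE M21 sequences and are not the size of an error in the TPM, which was not tested. On the monocyte surface the near copies were nevertheless assigned little next to the members. Ly6c1 had 1.12 ± 0.0692 TPM (relative abundance among all transcripts of a library, SD, n = 3) against 652 ± 42.2 for Ly6c2, Lyz1 4.27 ± 0.0363 against 1848 ± 231 for Lyz2, and Chil4 3.68 ± 1.31 against 643 ± 126 for Chil3. Ms4a6b was the exception, with 68.6 ± 12.1 against 181 ± 22.1 TPM for Ms4a6c.

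Promoters were searched for the core GAGGAA of sites bound by PU.1, the factor that directs the myeloid lineage, and for the TATA box TATAAA, on both strands of 250 bases before to 50 after each start in the RefSeq table for GRCm38.p6. Entries were found for 9 of the 10 members, all but Csf1r. These 9 have 11 promoters in the table. GAGGAA occurred in 6 of the 11 (54.5%), which belong to 4 of the 9 genes (44.4%), Ctss, Cd68, F13a1 and Ly6c2, and in 28.3% of all 32851 promoters. The 2 entries of Ly6c2 overlap and hold the same matches. TATAAA occurred in 2 of the 11 (18.2%), of Ctss and Chil3, and in 13.6% of all promoters. The last 120 bases before a start are shown for F13a1 (chr13:37050245-37050364, minus strand), as a member with GAGGAA, in capitals, and for Vcan (chr13:89742513-89742632, minus strand), as one where neither motif was found in the 300 bases.
F13a1: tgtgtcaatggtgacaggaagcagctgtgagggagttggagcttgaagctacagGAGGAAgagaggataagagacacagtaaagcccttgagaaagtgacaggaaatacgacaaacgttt
Vcan: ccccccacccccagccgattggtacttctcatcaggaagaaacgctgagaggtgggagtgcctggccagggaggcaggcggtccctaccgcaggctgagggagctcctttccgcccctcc

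The surface tables give TPM, a share of each library that keeps no depth. Protein-coding transcripts made up 16.9% to 18.1% of the TPM of a monocyte library and 0.645% to 2.96% of that of the other 12. Nearly every mRNA therefore reads higher in monocytes in TPM. Levels are thus also given in pcTPM, the TPM of protein-coding transcripts rescaled so that they add to 1000000 in each library, that is the share of a gene within the protein-coding RNA. The monocyte libraries come from a DNB T7 instrument and all others from an Illumina HiSeq, so instrument and monocyte identity cannot be told apart, and in bulk samples fewer cells of a type and less RNA per cell cannot be told apart either. PBMC libraries held 4686426 to 9055797 expected counts, of which the ribosomal RNA gene CT010467.1 took 50.5% to 57.0%.

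The monocyte surface libraries were rich in these mRNAs. The 10 members together made up 22357 ± 1821 pcTPM of their protein-coding RNA (SD, n = 3), that is 20293 to 23737 in single libraries. The next highest sum was 1587 ± 355 in HSPCs, with 1279 ± 192 for T cells, 1072 ± 201 for NK cells and 693 ± 48.4 for B cells after it. Single libraries of HSPCs (1201 to 1898), T cells (1161 to 1500.5) and NK cells (862 to 1262) overlapped. Ly6c2 alone had a mean of 1095 pcTPM on T cells, and Ctss one of 630 on B cells. Lyz2 alone gave 46.1% to 47.8% of the monocyte sum. By mean level Lyz2 ranked 1 among the 14782 protein-coding genes above 0 on monocytes, Ly6c2 ranked 9 and Chil3 ranked 12. F13a1 ranked 84, Ccr2 152, Ms4a6c 176, Ctss 217, Csf1r 449, Cd68 467 and Vcan 1159. The study counts a transcript above 50 TPM as a hit. By that rule 7 members had a transcript that passed in all 3 monocyte libraries, all but Csf1r, Cd68 and Vcan, as did 1.94% of the 37092 genes above 0. With transcripts summed by gene, as for all levels given here, 8 members passed in all 3, Cd68 passed in 2 and Vcan in 0, and 2.56% of genes passed in all 3. In the other 4 types 0 members passed in any library on the sums, and the share of genes whose sum passed in all 3 libraries was 0.747% for B cells, 0.82% for T cells, 0.555% for HSPCs and 0.814% for NK cells.

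In GRCm38 with GENCODE M21 models, Lyz2 lies at chr10:117277331-117282321, Chil3 at chr3:106147554-106167564, Ly6c2 at chr15:75108158-75111970, F13a1 at chr13:36867178-37050244, Vcan at chr13:89655312-89742509 and Cd68 at chr11:69664213-69666153, all on the minus strand. Ctss lies at chr3:95526786-95556403, Ccr2 at chr9:124101950-124113557, Csf1r at chr18:61100598-61132149 and Ms4a6c at chr19:11469366-11482192, on the plus strand. All 10 are protein-coding genes, and levels are over their exons.

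**Figure D1:**
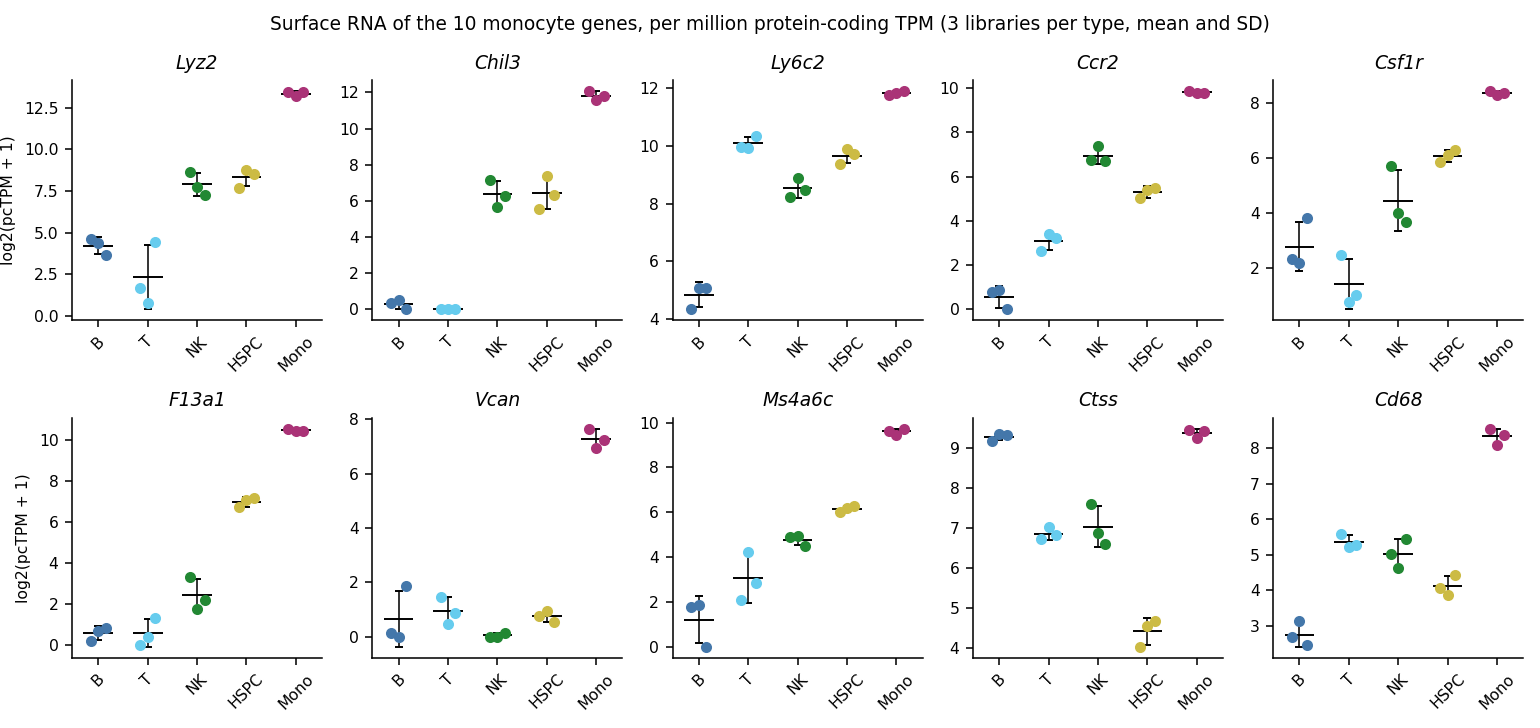
Surface level of each member as log2(pcTPM + 1) in B, T, NK, HSPC and monocyte (Mono) libraries, each dot a library, with the mean and SD of 3 and an axis of its own for each gene. Monocytes lie above all other libraries for 9 members, whereas for Ctss the B cell libraries reach into the monocyte range.

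Among the products of digestion and defence, Lyz2 stood at 11097, 9350 and 11007 pcTPM in the 3 monocyte libraries. In HSPCs it stood at 208, 434 and 358, in NK cells at 402, 213 and 154, in B cells at 11.5 to 23.1 and in T cells at 0.703 to 21.0. Monocytes were apart from all others, 31.4 times the HSPC mean, whereas HSPCs overlapped with NK cells and B cells with T cells. Chil3 stood at 4278, 3012 and 3617 pcTPM in monocytes, 46.8, 168 and 80.4 in HSPCs, and 141, 49.5 and 75.4 in NK cells. It was at or below 0.432 in B cells and listed at 0 in all 3 T cell libraries. Chil3 thus had the same order as Lyz2, with monocytes 36.9 times the HSPC mean and HSPCs and NK cells overlapping.

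Ctss, a cathepsin that also trims the invariant chain of MHC class II in antigen-presenting cells, departed from this order. It stood at 705, 609 and 691 pcTPM on monocytes and at 582, 660 and 647 on B cells, and these ranges overlapped. NK cells had 96.6 to 194, T cells 105 to 129 and HSPCs 15.3 to 24.6. In TPM the same gene read 103 to 125 on monocytes and 12.96 to 16.8 on B cells, a ratio of means of 7.82, against a ratio of 1.06 in pcTPM. Cd68 stood at 368, 272 and 331 pcTPM on monocytes, 36.5 to 46.5 on T cells, 23.7 to 42.4 on NK cells, 13.7 to 20.6 on HSPCs and 4.46 to 7.76 on B cells. T cells and NK cells overlapped, and monocytes were 8.05 times the T cell mean.

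The sorting marker Ly6c2 stood at 3517, 3672 and 3821 pcTPM on monocytes, 993, 981 and 1312 on T cells, 660, 945 and 836 on HSPCs, 299, 477 and 353 on NK cells, and 19.0 to 32.9 on B cells. None of these neighbours overlapped, and monocytes were 3.35 times the T cell mean, the smallest lead after that of Ctss. Ccr2 stood at 926, 872 and 872 pcTPM on monocytes, 107, 166 and 104 on NK cells, 31.3 to 43.9 on HSPCs, 5.23 to 9.53 on T cells and at most 0.848 on B cells, again without overlap. Csf1r stood at 346, 312 and 330 pcTPM on monocytes and at 57.2, 68.0 and 77.9 on HSPCs. NK cells had 51.1, 14.8 and 11.5, B cells 3.55 to 12.99 and T cells 0.668 to 4.45, and these last 3 types overlapped with their neighbours.

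F13a1 and Vcan were the members with the least RNA on lymphocytes by the sum of the B, T and NK means. F13a1 stood at 1501, 1370 and 1385 pcTPM on monocytes, 104, 132 and 144 on HSPCs, 2.39 to 8.82 on NK cells and at most 1.49 on T and B cells. Ms4a6c stood at 798, 703 and 837 on monocytes, 62.7, 72.4 and 76.0 on HSPCs, 21.4 to 29.4 on NK cells, 3.20 to 18.0 on T cells and at most 2.60 on B cells. For F13a1 and Ms4a6c the marrow types led, and HSPCs were apart from lymphocytes. Vcan stood at 201, 121 and 152 pcTPM on monocytes and at most 2.63 in any library of the other 4 types, HSPCs included. It was the scarcest member on monocytes and the only one at a near-zero level on HSPCs.

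The 3 monocyte libraries varied unequally between members. The coefficient of variation of the pcTPM level was 3.54% for Ccr2, 4.14% for Ly6c2, 5.05% for F13a1 and 5.22% for Csf1r, and 25.5% for Vcan, 17.4% for Chil3 and 14.9% for Cd68. Replicate 2 had the lowest level of all 10 members in TPM and of 9 of them in pcTPM, the exception being Ly6c2. On HSPCs the variation ran from 9.82% for Ms4a6c to 63.6% for Chil3.

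Transcripts of a gene were not equally represented. Lyz2 has 1 listed transcript, and Chil3, Ly6c2 and Cd68 were each dominated by their first (99.8%, 95.8% and 95.9% of monocyte TPM on average). For Ctss the leading form was Ctss-202 with 82.2% to 90.9%, and for Ccr2 it was Ccr2-202 with 49.0% to 63.1%. F13a1 was divided between F13a1-201 (36.3% to 56.0%) and F13a1-202 (21.4% to 39.7%). Forms without a coding sequence made up 22.1% to 24.1% of the F13a1 TPM. The retained-intron form Ms4a6c-202 made up 23.6% to 24.6% of the Ms4a6c TPM, at 44.0 ± 5.38 TPM (SD, n = 3). Such forms made up at most 8.22% of the TPM of any other member in a monocyte library. They are left out of the pcTPM levels.

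Monocytes were then compared with the mean of the other 4 types with limma on log2(level + 1), in a fit of all 15 libraries, with Benjamini-Hochberg adjustment over all genes. In pcTPM 43% of the 8995 genes tested were higher and 17.9% lower at an adjusted p below 0.05, and all 10 members were higher. Of these Vcan passed the filter on low values only through the monocyte libraries, so that it had to differ. In TPM all 10 were higher too, but so were 89.9% of 10448 genes, with 4.1% lower (9395 and 428 genes, and 3304 and 3345 after quantile normalization). The count of members in TPM is therefore no result about them, and 7 of the 10 passed the TPM filter only through the monocyte libraries. In pcTPM the differences of the 9 members other than Vcan ran from 2.48 to 8.54 log2 units, and the median of all genes tested was 0.368. Chil3 had the largest difference of all 8995 genes, 8.54 ± 0.321 (SE, adjusted p = 1.74e-10), and F13a1 the next, 7.84 ± 0.305 (adjusted p = 2.35e-10). Lyz2 ranked 4 with 7.67 ± 0.536 (adjusted p = 2.95e-08), Ccr2 47 with 5.82 ± 0.217 and Ms4a6c 50 with 5.81 ± 0.394. Csf1r (4.69 ± 0.435), Cd68 (4.02 ± 0.195) and Ly6c2 (3.57 ± 0.175) followed, and Vcan stood at 6.68 ± 0.385. Ctss had the smallest, 2.48 ± 0.175 (adjusted p = 3.22e-08), with B cells at the monocyte level. All 3 monocyte libraries were above all 12 others for 9 of 10 members in pcTPM, as they were for 23.2% of genes. On the 12 other libraries alone, Lyz2, Ly6c2 and Ctss would have passed the filter in TPM, and all but Vcan in pcTPM.

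**Figure D2:**
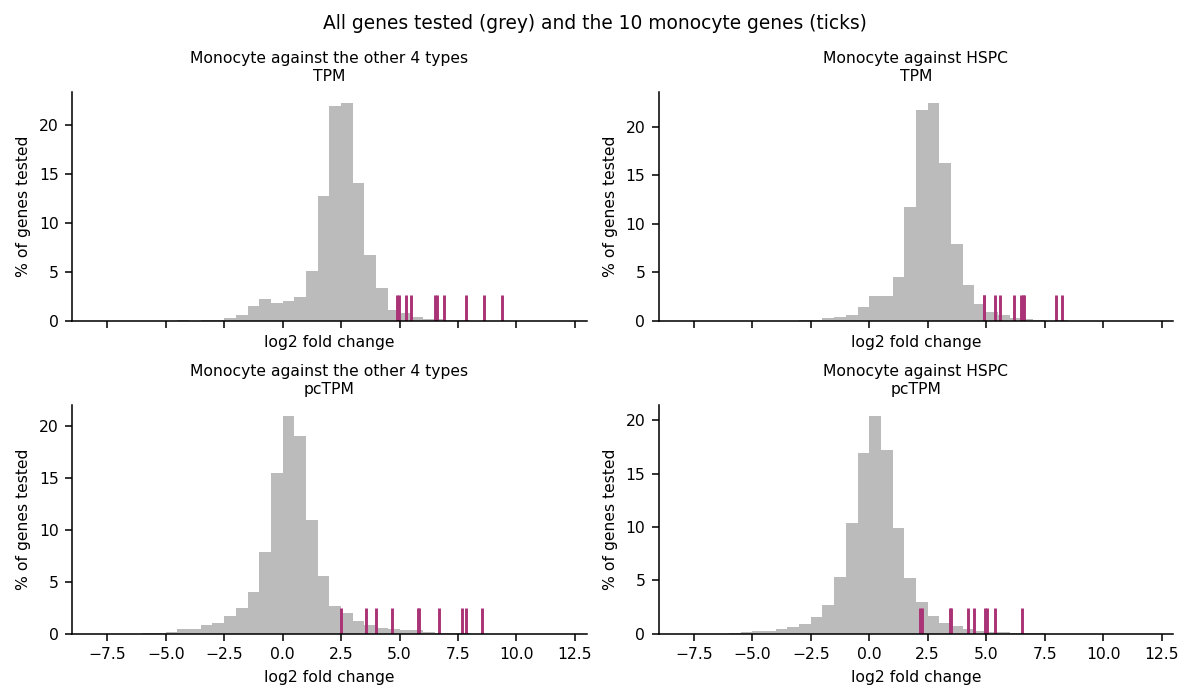
Share of genes tested (grey bars, percent) by log2 fold change of monocytes against the other 4 types and against HSPCs, in TPM (top) and in pcTPM (bottom), with a tick for each of the 10 members. In TPM the bulk of all genes is shifted to about the median of 2.48 or 2.59, and in pcTPM it is near 0, with the members to the right in all 4 panels.

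Against HSPCs, the other marrow type, the differences were smaller for most members but all 10 were still higher in pcTPM, where 32.4% of genes were higher and 17.2% lower. All 3 monocyte libraries were above all 3 HSPC libraries for all 10, as for 44% of genes. In TPM all 10 were higher as well, as were 92% of genes, with 0.833% lower. The median of all genes was 0.256 log2 units in pcTPM. Vcan, which had to differ as above, stood at 6.53 ± 0.487 log2 units in pcTPM (SE, adjusted p = 1.42e-07). Of the other 9, Chil3 had the largest difference with 5.37 ± 0.407, followed by Lyz2 with 5.03 ± 0.679 and Ctss with 4.97 ± 0.222. Ccr2 differed by 4.495 ± 0.274, Cd68 by 4.21 ± 0.246, F13a1 by 3.49 ± 0.386 and Ms4a6c by 3.45 ± 0.499. The smallest were those of the receptor Csf1r, 2.28 ± 0.550 (adjusted p = 0.00340), and of Ly6c2, 2.19 ± 0.222 (adjusted p = 2.28e-06). The 2 comparisons share the monocyte and HSPC libraries and are not independent.

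**Figure D3:**
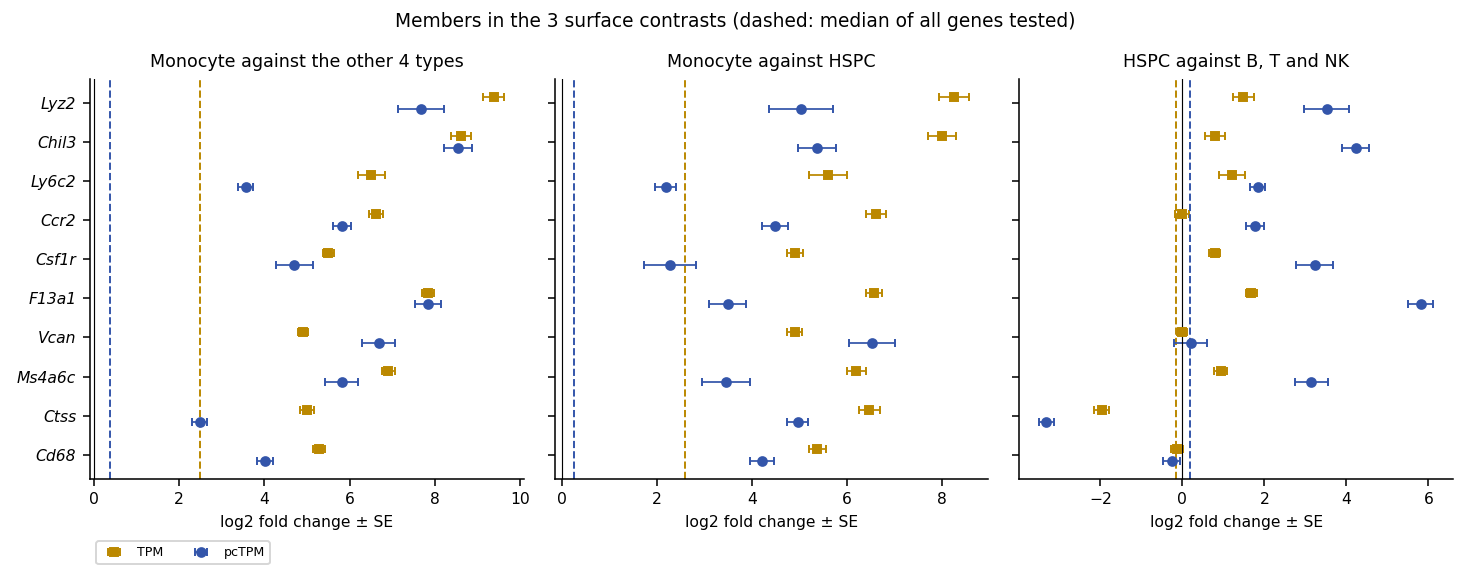
Log2 fold change ± SE of each member in the 3 surface comparisons, in TPM (squares) and in pcTPM (circles), with dashed lines at the median of all genes tested. Members lie right of the dashed lines in both monocyte comparisons, while in HSPCs against lymphocytes F13a1 is the highest and Ctss lies far to the left.

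HSPCs were compared with the mean of B, T and NK cells, all on the same sequencing platform. HSPCs came from marrow and the lymphocytes from spleen, so cell type and tissue cannot be told apart. In pcTPM 7 members were higher (33.2% of genes were) and Ctss was lower (22.1% of genes were), while Cd68 and Vcan did not pass. F13a1 led with 5.81 ± 0.315 log2 units (SE, adjusted p = 3.11e-09), the 11th largest of 8995 genes. Chil3 was higher by 4.23 ± 0.332, Lyz2 by 3.52 ± 0.554, Csf1r by 3.22 ± 0.449 and Ms4a6c by 3.14 ± 0.407. Ly6c2 (1.84 ± 0.181) and Ccr2 (1.77 ± 0.224, adjusted p = 1.14e-05) were higher by less. Ctss was lower by 3.31 ± 0.181 (log2 fold change -3.31, adjusted p = 3.18e-09). All 3 HSPC libraries were above all 9 lymphocyte libraries for Csf1r, F13a1 and Ms4a6c, as they were for 19.2% of genes, and below them for Ctss, as for 11.3%. Lyz2, Chil3, Ly6c2 and Ccr2 overlapped with or lay below NK or T cells.

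In TPM 6 members were higher in HSPCs (7.5% of genes were) and Ctss was lower (20.5% of genes were). Ccr2 had 0.00 ± 0.171 and Cd68 -0.12 ± 0.147 log2 units in TPM. After rescaling without ribosomal RNA and the transcripts of Gm55936, Gm55094 and Gm55118, removed together, both were called higher. Their log2 differences were then 1.49 and 0.92, with adjusted p of 8.60e-05 and 0.00186. In that fit 8150 of 14021 genes were higher and 1064 lower, so these calls are no result about Ccr2 and Cd68. With a pseudocount of 10 in place of 1, which damps low values, 2 members were higher, and 3.16% of genes. The call of Ly6c2 in TPM was lost without HSPC replicate 2 (adjusted p = 0.0946) or 3 (0.0663), and that of Chil3 likewise (0.204 and 0.0701).

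Markers of other cells moved with these differences. Neutrophil markers, 12 of 15 of which were tested, summed to 9714 to 10322 pcTPM on monocytes, 1256 to 3516 on HSPCs, 1082 to 2465 on NK cells and at most 74.5 on B and T cells. All 12 were higher in monocytes and in HSPCs in the pcTPM comparisons, and 7 of 12 in monocytes against HSPCs. The 4 highest of this list on monocytes by mean TPM were S100a9 (481.5), S100a8 (443.4), Ngp (265 ± 12.8, SD, n = 3) and Camp (201.5). Ngp is a neutrophil granule protein. Ly6g, by which neutrophils are sorted, had 2.40 ± 1.06 TPM and was picked out after its value was seen. Primary granule and progenitor markers such as Mpo summed to 10170 to 13277 pcTPM on HSPCs and 4109 to 6732 on monocytes. Of 9 tested, 9 were higher in HSPCs than in lymphocytes, 6 were higher and 1 lower in monocytes against the other 4 types, and 6 were lower and 0 higher in monocytes against HSPCs. All 8 platelet markers were higher in HSPCs than in lymphocytes, at 1796 to 1954 pcTPM against at most 344, and also in monocytes against the other 4 types, whereas 6 of 8 were lower and 0 higher in monocytes against HSPCs (median -1.11 log2 units in pcTPM). The part of these cells in the members' levels was not tested. Macrophage markers summed to 291 to 344 pcTPM on monocytes, most of it from Hmox1 (131 ± 19.7, SD, n = 3) and Adgre1 (126 ± 18.8), with C1qc, Marco and Timd4 listed at 0 in all 3 libraries. Of 12 macrophage markers 3 were tested (Adgre1, Hmox1 and Vcam1), and all 3 were higher on monocytes than in the other 4 types (median 4.18 log2 units in pcTPM) and than in HSPCs (median 3.90). In these comparisons 43% and 32.4% of all genes were higher. Markers that passed the filter only through monocytes were not set apart, so that such counts are a description. The part of macrophages was not tested either. On monocytes B, T and NK markers summed to at most 52.4, 41.5 and 114 pcTPM. Dendritic cell markers summed to 196 to 242 and erythroid markers to 151 to 251 on monocytes. Of 6 erythroid markers tested, 3 were lower and 0 higher in monocytes against the other 4 types, 5 were lower against HSPCs (median -4.66 log2 units in pcTPM), and 3 were higher in HSPCs against lymphocytes (median 2.93). Of 8 dendritic cell markers 5 were lower and 0 higher in monocytes against the other 4 types.

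The other genes of these pathways were set against the same shares of all genes in pcTPM, 43% higher and 17.9% lower for monocytes against the other 4 types and 32.4% and 17.2% against HSPCs. Genes that passed the filter only through monocytes were not set apart here, so that the counts and medians of the lists are a description. Of the 31 other classical monocyte genes, 29 were tested in pcTPM and all 29 were higher than in the other 4 types (median 4.65 log2 units), and 28 of 29 higher than in HSPCs (median 3.90). Fn1, which encodes fibronectin, was higher by 7.77 ± 0.611 (SE) and the interferon-induced Ifitm3 by 5.17 ± 0.365. Tyrobp, an adaptor of activating receptors, was higher by 3.13 ± 0.140. Plac8 was higher by 1.96 ± 0.117 against the other 4 types, while its difference from HSPCs was 0.14 ± 0.148 (adjusted p = 0.470). Of the Csf1r axis, with ligands, signalling partners and transcription factors, 12 of 16 tested were higher and 2 lower (median 2.34), and 10 higher and 4 lower against HSPCs. Spi1, which encodes PU.1, was higher by 2.67 ± 0.378, Klf4 by 4.15 ± 0.284, Zeb2 by 2.95 ± 0.210 and Cebpb by 3.70 ± 0.149, all transcription factors of myeloid cells.

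Around Ccr2, 9 of 12 tested homing genes were higher and 0 lower than in the other 4 types (median 1.12), among them the chemokine receptor Cxcr4 (1.05 ± 0.213, SE), the selectin ligand Selplg (0.76 ± 0.156) and the integrin Itgb2 (1.20 ± 0.249). The ligands Ccl12 and Ccl8 were listed at 0 in all monocyte libraries. Of the lysosomal genes, 15 of 17 were higher and 1, Cd74, had a log2 fold change of -2.14 ± 0.288; this gene was picked out after its value was seen. Psap, the precursor of the saposins, was higher by 2.15 ± 0.137, Cst3, an inhibitor of cathepsins, by 1.88 ± 0.153 and Lamp1 by 2.39 ± 0.109, whereas Laptm5 was at 0.24 ± 0.101 (adjusted p = 0.0554). Non-classical monocyte genes were divided, with 6 of 11 higher and 4 lower (median 0.981), and Nr4a1 (1.69 ± 0.240), Tnfrsf1b (2.61 ± 0.128), Ceacam1 (3.93 ± 0.203) and Spn (0.98 ± 0.157) among those higher. Of the 16 family relatives of the members, 4 were tested, of which 1 was higher and 2 were lower. Against HSPCs 10 of 12 homing genes and 15 of 17 lysosomal genes were higher and 0 lower, and 6 of 11 non-classical genes were higher and 1 lower. In HSPCs against lymphocytes, where 33.2% of all genes were higher and 22.1% lower, 15 of 29 other classical genes were higher and 5 lower, 10 and 2 of 16 in the Csf1r axis, 4 and 6 of 12 homing genes, 9 and 5 of 17 lysosomal genes and 2 and 6 of 11 non-classical genes.

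Across the 15 surface libraries, most members followed each other in pcTPM, Ly6c2 less closely and Ctss hardly at all. Pearson's r of a member's log2 level with the mean of the other 9 was 0.952 for Chil3, 0.951 for Ms4a6c, 0.928 for Lyz2, 0.922 for F13a1 and 0.909 for Ccr2. It was 0.895 for Csf1r, 0.828 for Cd68, 0.815 for Vcan and 0.699 for Ly6c2, and 0.101 for Ctss. The protein-coding genes most like the members' mean were Tbkbp1 (r = 0.988), Ptpro (0.988), C3 (0.987), Bmpr2 (0.984) and Cd300a (0.983). These values describe 15 libraries of 5 types that share their type, tissue and platform, and no test was made. The members were chosen as monocyte markers, so their high levels in the same monocyte libraries enter every value.

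In PBMC total RNA the order of the members was different. Lyz2 was again the highest, at 32.8 to 53.0 TPM over the 9 libraries. Ctss was next with a mean of 4.35 TPM, then Ly6c2 with 4.12, Csf1r with 2.96, Ms4a6c with 2.62, F13a1 with 2.40, Ccr2 with 1.44 and Cd68 with 1.42. Chil3, which ranked 3 of 10 on the monocyte surface, ranked 9 with 0.486, and Vcan ranked 10 with 0.110. Relative to Lyz2 in the same library, Chil3 had 32.2% to 38.7% of its TPM on the monocyte surface and 0.911% to 2.22% in PBMCs, where it rests on 12 to 25 expected counts a library. F13a1 had 16.3% to 18.8% and 4.62% to 8.13%, Ly6c2 32.0% to 39.6% and 8.17% to 13.99%, and Ccr2 7.92% to 9.32% and 2.97% to 5.00%. Csf1r went the other way with 3.25% to 3.53% on the surface and 6.07% to 9.83% in PBMCs, as did Ctss with 6.28% to 6.51% and 9.30% to 13.1%. Cd68 was similar in both, 2.91% to 3.31% and 3.29% to 4.04%. The 2 data sets differ in tissue, cell mixture, assay and quantification, whose parts cannot be told apart.

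**Figure D4:**
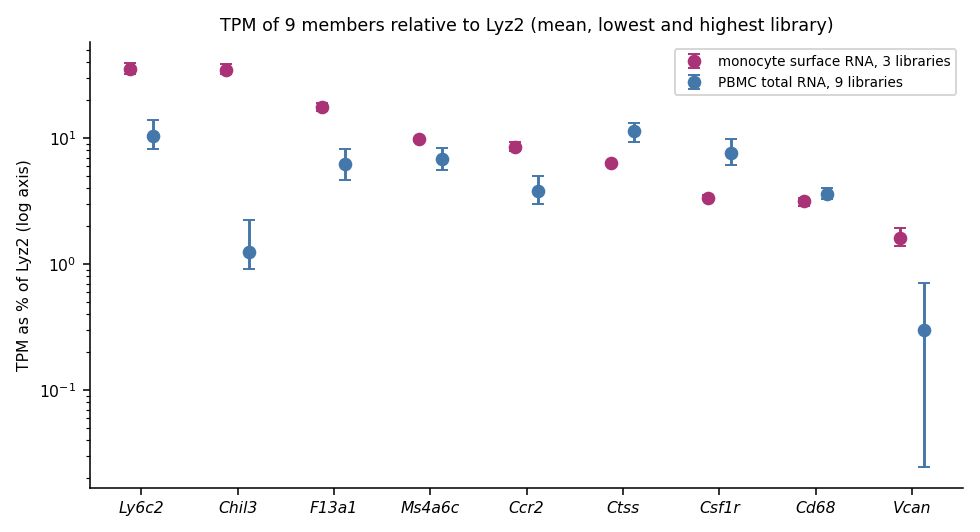
TPM of 9 members as a percentage of Lyz2 in the same library (log axis), with the mean and the lowest and highest library, for 3 monocyte surface libraries and 9 PBMC total RNA libraries. Chil3 shows the widest gap, at 34.6% on the surface and 1.25% in PBMCs on average (12 to 25 expected counts a PBMC library), and Csf1r and Ctss lie higher in PBMCs.

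For the PBMC groups 11635 genes entered edgeR's quasi-likelihood fit, and all 10 members were tested in each comparison. WT was set against ct first. Of the 10 members, Ly6c2 was higher (0.765% of genes were) and Vcan and F13a1 were lower (1.6% of genes were). Ly6c2 had 9.16, 7.49 and 9.85 CPM (counts over the library size scaled by TMM) in ct and 13.5, 13.8 and 14.3 in WT. The groups did not overlap, and the log2 difference was 0.64 ± 0.120 (SE, adjusted p = 0.00703). Its near copy Ly6c1 stood at 4.46 ± 1.88 CPM in ct and 6.77 ± 0.849 in WT (SD, n = 3). F13a1 had 36.4, 37.6 and 37.2 CPM in ct and 28.8, 26.3 and 31.8 in WT, all WT libraries below all of ct, with a log2 difference of -0.36 ± 0.0873 (adjusted p = 0.0400). Vcan had 23, 10 and 16 expected counts in ct and 7, 3 and 2 in WT, so that its log2 difference of -2.03 ± 0.458 (adjusted p = 0.0247) rests on few reads.

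**Figure D5:**
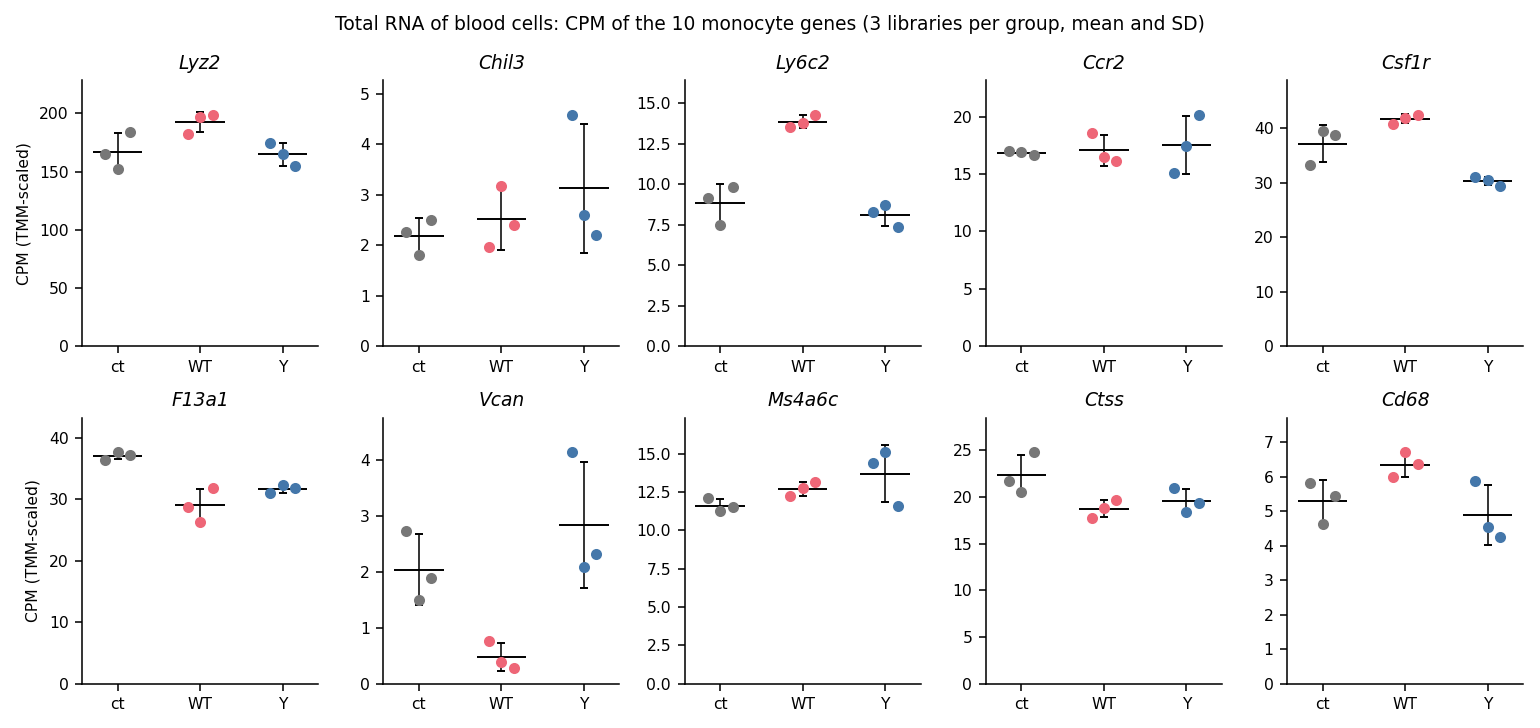
CPM of each member in the ct, WT and Y libraries of PBMC total RNA, each dot a library, with the mean and SD of 3 and axes from 0. Ly6c2 in WT lies above the other 2 groups and Vcan in WT below them, while Ccr2 and Chil3 overlap between all groups.

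Neither F13a1 nor Vcan was stable as a call. F13a1 passed in only 1 of the 9 fits that left out a library, the one without WT replicate 3, and Vcan failed without ct replicate 1 (adjusted p = 0.141), ct replicate 3 (0.0535), WT replicate 2 (0.123) or WT replicate 3 (0.106). Ly6c2 passed in all 9 such fits and failed without TMM scaling (adjusted p = 0.195) and with DESeq2 (0.0715), which called 0 members. The other 7 members did not pass. All WT libraries were above all of ct for 4 members (7.62% of genes), namely Ly6c2, Csf1r, Ms4a6c and Cd68, and below for 3 (8.62% of genes), namely F13a1, Vcan and Ctss. Lyz2 had 165, 152 and 184 CPM in ct and 182, 197 and 199 in WT, overlapping, with a log2 difference of 0.20 ± 0.0934 (adjusted p = 0.406).

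Y was then set against ct. By edgeR 0 of 10 members were called (0.266% of genes were higher and 0.438% lower, 31 and 51 genes, which became 116 and 51 without ct replicate 3 and 17 and 17 without Y replicate 3), as by DESeq2, and 2 members, Csf1r and F13a1, had an unadjusted p below 0.05. Csf1r had 33.3, 39.4 and 38.8 CPM in ct and 30.99, 30.5 and 29.4 in Y, not overlapping, with a log2 difference of -0.30 ± 0.0893 (adjusted p = 0.239). F13a1 had 30.99 to 32.3 CPM in Y, below all of ct, with a log2 difference of -0.22 ± 0.0883 (adjusted p = 0.467). These were the 2 members with all Y libraries below ct (7.55% of genes), and 0 members had all above (5.7% of genes). Lyz2 stood at 155 to 175 CPM in Y, within the range of ct, and Ly6c2 at 7.36 to 8.72 against 7.49 to 9.85.

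Between Y and WT, Vcan was higher in Y (0.438% of genes were) and Ly6c2 and Csf1r were lower (0.817% of genes were). Ly6c2 differed by -0.77 ± 0.126 log2 units (SE, adjusted p = 0.00403) and Csf1r by -0.46 ± 0.0884 (adjusted p = 0.0132), from 40.8 to 42.4 CPM in WT to 29.4 to 30.99 in Y. Vcan had 19, 16 and 18 expected counts in Y against 7, 3 and 2 in WT, a log2 difference of 2.41 ± 0.449 (adjusted p = 0.0109). DESeq2 called Ly6c2 and Csf1r and gave no adjusted p for Vcan. The call of Csf1r was lost when WT replicate 2 or 3 or any of the 3 Y libraries was left out (adjusted p up to 0.0931), that of Vcan without WT replicate 2 (0.0624), WT replicate 3 (0.0599) or Y replicate 1 (0.0570), and that of Ly6c2 without Y replicate 3 (0.0536). Without TMM scaling Ly6c2 and Csf1r were not called (adjusted p = 0.139 and 0.579). All Y libraries were above WT for Vcan (8.54% of genes) and below WT for Lyz2, Ly6c2, Csf1r and Cd68 (8.75% of genes). The 3 comparisons share their groups, so that low Vcan and high Ly6c2 in WT enter 2 of them.

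Other cells differed between the PBMC groups too. All 8 platelet markers fell in WT against ct, from 571 to 605 CPM in sum to 363 to 407, and 3 of 8 fell in Y against ct, to 445 to 458. All 6 erythroid markers tested fell in WT and 5 of 6 in Y against ct. F13a1 is also a known product of platelets and their precursors, and its part in the fall was not tested. Neutrophil markers summed to 158 to 172 CPM in ct, 152 to 163 in WT and 330 to 354 in Y, and 10 of 13 rose in Y against each of the other groups. In WT against ct 2 rose (Ngp and Ltf) and 2 fell (S100a8 and S100a9). NK markers summed to 71.5 to 76.9 CPM in WT and 56.6 to 58.8 in the other groups, with Klrb1c and Ncr1 higher in WT than in ct. Ly6c2 RNA is also found on NK and T cells in the surface data above, and the part of these cells in its rise was not tested. Sums of B cell markers were 267 to 300 CPM and of T cell markers 248 to 281 CPM over the 9 libraries, with 0 genes of either list called by edgeR in any comparison.

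Among the further myeloid lists in PBMCs few genes were called, and those named next were chosen after their values were seen where they are not among the 4 highest of their list. Of 30 other classical monocyte genes tested, 1 was lower in WT against ct. This was Thbs1, which encodes thrombospondin, a protein platelets also store, with a log2 difference of -0.93 ± 0.0894 (SE, adjusted p = 0.000167). In Y, S100a6 was higher than in ct (0.72, adjusted p = 0.00856). Between Y and WT, S100a6, Hp and Thbs1 were higher and Mpeg1 was lower. Of 16 non-classical genes 1, Nr4a1, was higher in WT against ct (0.44 ± 0.0887, adjusted p = 0.0111), and Nr4a1 and Ace were lower in Y against WT. Cebpb of the Csf1r axis was lower in Y against WT (-0.74 ± 0.119, adjusted p = 0.00353), as was Cxcr4 (-0.74 ± 0.0852, adjusted p = 0.000164), which was also lower in Y against ct. Itgb1, an integrin of the homing list, was lower in WT against ct (-0.35, adjusted p = 0.04997). Of 17 lysosomal genes, 6 relatives, 3 macrophage, 7 dendritic cell and 2 primary granule genes tested, 0 were called by edgeR in any of the 3 comparisons.

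Across the 9 PBMC libraries the members did not vary together. Pearson's r of a member's log2 CPM with the mean of the other 9 ranged from -0.666 for Ccr2 to 0.448 for Chil3. The genes most like the members' mean were Prkar2a (r = 0.952), Gmeb1 (0.944), Cd28 (0.940), Rhebl1 (0.918) and Nop58 (0.917), again as a description without a test. The sum of the 10 members was 310.5 ± 20.01 CPM in ct, 335 ± 11.3 in WT and 297 ± 13.3 in Y (SD, n = 3), of which Lyz2 made up 51.9% to 58.3% in each library.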

How the data were processed

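The authors deposited TPM per transcript for the 15 surface libraries, estimated with kallisto after trimming and removal of duplicate reads with the same barcode, and expected counts and TPM per gene from RSEM for the 9 PBMC libraries. The submitters' processing notes name mm10 for both. Here TPM were summed by gene name, and protein_coding transcripts were also scaled to 1000000 per library (pcTPM). Surface values were tested with limma 3.58.1 (R 4.3.3) on log2(x + 1) with a mean-variance trend, for genes with a mean of at least 1 TPM, or 10 on the protein-coding scale. Expected counts were rounded and tested with edgeR 4.0.16 (TMM, filterByExpr, quasi-likelihood). All libraries of a data type entered a single fit, and calls needed a Benjamini-Hochberg adjusted p below 0.05. The study names DESeq2 on counts; DESeq2 1.42.0 was an alternative for PBMCs, and TPM are not counts. The fits were tested on simulated data. Surface depth is unknown. Murine surface replicates are described as biological by the study. Nothing says so for PBMCs, where p-values measure the spread between samples, which may be technical. The members and gene lists were chosen with earlier results of these data known. All members were named, with the 5 genes most like them. From each list, genes were named among the 4 highest in monocyte TPM or in PBMC CPM, not all of which are printed. Genes outside this rule (among them Ly6g, Ltf, C1qc, Marco, Timd4, Ccl8, Ccl12, Chil4, S100a6, Hp, Mpeg1, Itgb1, Klrb1c and Ncr1) were named after their values were seen. One gene of the homing list is counted with it but its values are not reported here. Gene models and sequences are from GENCODE M21 (GRCm38) and RefSeq (GRCm38.p6).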

Additional observations from a re-analysis of the deposited data

How the results depend on the processing

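In both monocyte comparisons all 10 members were called higher without any 1 library and under 9 more TPM and 2 more pcTPM settings. Of all genes 89.9% (other types) and 92% (HSPCs) were higher in TPM, and 43% and 32.4% in pcTPM. All but 3 members passed the TPM filter only through monocytes (9 at 50 TPM, where Vcan failed), as did Vcan in pcTPM. The TPM calls are thus no result. For HSPCs against lymphocytes the count in TPM fell from 6 to 2 with a pseudocount of 10 and was 4 to 6 without single libraries. There Chil3 was also not called without the filter (0.79, adjusted p = 0.0836), and Ccr2 was called with a pseudocount of 0.1 (0.83, adjusted p = 0.0453). Uncalled values also changed sign there. Ccr2 went to -0.040 with a pseudocount of 10 and -0.091 to 0.125 without single libraries. Vcan went to -0.074 with quantile normalization and -0.0045 to 0.0086 without single libraries. The cause was not tested. Without ribosomal RNA and the transcripts of Gm55936, Gm55094 and Gm55118, Cd68 went to 0.92 and was called higher (adjusted p = 0.00186), as was Ccr2. Then 8150 of 14021 genes were higher, so these calls are no result. In WT against ct the members called higher went from 1 to 0 without TMM scaling and with DESeq2, and those called lower from 2 to 1 without TMM scaling, without the filter, with the replicate block and in the fit of the compared groups, to 0 with DESeq2, and to between 0 and 1 without single libraries. In Y against WT those called higher went from 1 to 0 with DESeq2, and those called lower from 2 to 0 without TMM scaling. Without single libraries these were 0 to 1 and 0 to 2. DESeq2 gave Vcan no adjusted p in either. Values near 0 that changed sign in PBMCs were those of Ccr2 in WT against ct (-0.043 without TMM scaling, -0.043 to 0.069 without single libraries), in Y against ct (-0.032 to 0.16) and in Y against WT (-0.061 to 0.14), of Chil3 in WT against ct (-0.017 to 0.35) and in Y against WT (-0.055 to 0.45), and of Lyz2 in Y against ct (0.013 without TMM scaling, -0.082 to 0.063 without single libraries). Counting protein_coding transcripts only lowered the monocyte level of F13a1 from 324 to 249.6 TPM and of Ms4a6c from 181 to 137.4.

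Same-numbered T and NK libraries deviated together (correlations of 0.219 to 0.461), against -0.381 to 0.136 for T and NK libraries of different number. Over all types of the surface, same-numbered libraries correlated between -0.259 and 0.461 (median 0.0022), and in PBMCs between -0.0614 and 0.0594, so that the numbers do not pair the groups throughout. With the replicate block F13a1 in WT against ct was no longer called (adjusted p = 0.0703), and the block changed no other call of a member. Low counts limit Vcan and Chil3 in PBMCs, with 2 to 23 and 12 to 25 expected counts a library. For the surface, TPM give no depth from which to judge low levels, and 3 libraries a group limit every test. Over all genes, quantile normalization of TPM gave 3304 genes higher and 3345 lower in monocytes against the other types (as reported, 9395 and 428), 2778 and 2924 against HSPCs (as reported, 9614 and 87), and 3124 and 2503 in HSPCs against lymphocytes (as reported, 784 and 2146, 8150 and 1064 of 14021 genes without ribosomal RNA and those 3 genes, 330 and 1369 with a pseudocount of 10). In PBMCs WT against ct had 89 genes higher and 186 lower, 238 and 246 without the filter, 26 and 100 without TMM scaling and 47 and 128 with DESeq2. Y against ct had 31 and 51, 133 and 124 without the filter and 27 and 15 without TMM scaling, and Y against WT had 51 and 95, 132 and 234, and 57 and 28. Single libraries moved these counts by over 1.5 times. In WT against ct they ran from 56 to 126 higher and 111 to 171 lower, with such moves without any 1 of the ct libraries or WT replicate 2. In Y against ct they ran from 17 to 116 higher and 17 to 51 lower, with 116 higher without ct replicate 3, 17 higher and 17 lower without Y replicate 3, and such moves also without ct replicate 1 or 2 or Y replicate 1 or 2. In Y against WT they ran from 26 to 65 higher and 26 to 112 lower, with such moves without WT replicate 2 or 3 or any Y library. In TPM, HSPCs against lymphocytes had 443 to 964 higher and 1372 to 2952 lower, with such moves without any 1 of the HSPC libraries.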
